A study of Mus musculus with 14 samples.

Results

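The Myc locus was followed through 18 accessible elements of the mouse genome, which are the regions with a mean deposited signal of at least 50 on chromosome 15 between positions 61950000 and 63950000 of build mm10. They are 18 of the 351 regions listed in that window and of 705361 regions listed genome-wide, of which 59189 reach the same mean. By position, 3 elements lie at the Myc gene, 5 in Pvt1, 1 between Pvt1 and the distal cluster, 8 in the cluster that lies 1.6 to 1.8 Mb downstream of the Myc start, and 1 beyond it. The 3 at Myc are named by their place there (upstream, promoter, gene body), the others by the distance in kb of their midpoint from the Myc start at position 61985341.

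Myc encodes a basic helix-loop-helix leucine zipper transcription factor that pairs with Max at E-box sequences and drives growth, ribosome production and proliferation. Pvt1, the neighbouring gene, makes a long non-coding RNA, and in human breast cancer cells its promoter has been reported to compete with that of MYC for enhancers. A cluster of enhancers far downstream, past a long stretch with few genes, is known to be needed for Myc expression in mouse haematopoietic stem and progenitor cells, and its modules are known to differ in activity between blood lineages.

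Sorted bone marrow cells gave 14 ATAC-seq libraries, made by letting a transposase cut and tag DNA that is not covered by nucleosomes. MPP3 cells, early progenitors that feed mainly the myeloid lineage, account for 7 of them, and LT-HSC, the self-renewing stem cells of the blood, for the other 7. Donor marrow was of strain C57BL/6J and carried Dnmt3a-flR878H/+ together with Npm1-frt/+ (Dnmt3a;Npm1), Npm1-frt/+ alone (Npm1, titled Npm1c), Dnmt3a-flR878H/+ alone (Dnmt3a), or was wild type with the Mx-Cre transgene (WT). In each case 1000000 whole marrow cells from young donors went into young, lethally irradiated CD45.1 recipients, and all recipients, WT included, received poly(I:C) after 4 weeks, tamoxifen 4 weeks later, and gave marrow after 4 weeks more. Mx-Cre is driven by the interferon-responsive Mx1 promoter, which is not limited to blood cells. The labels name Mx-Cre for WT only, and they do not name the recombinase that tamoxifen acts on, the number of animals behind a library or whether recipient cells were gated out. Of the 8 groups, 6 held 2 libraries, while MPP3 Dnmt3a;Npm1 and LT-HSC Dnmt3a held 1 each. No label ties the replicates to different animals. A p-value here is therefore relative to how far libraries of a group lie apart, and that distance may be technical.

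In 8 libraries the deposited signal is reads multiplied by 1 unstated factor per library. In 6 libraries no such factor was found. In the 8 libraries where that factor could be found, 7336955 to 18276848 reads lay in regions, and 4 to 653 reads, with a median of 43, stood behind an element's value. The fewest reads in regions were in MPP3 Dnmt3a replicate A (7336955), LT-HSC Npm1 replicate A (7597200) and MPP3 Dnmt3a replicate B (9982950). The share of all signal that lay in the 59189 tested regions, a measure of enrichment, ran from 25.49% to 63.11%. It was lowest in LT-HSC Npm1 (29.41% and 25.49%) and next lowest in MPP3 Dnmt3a (31.75% and 37.12%), against 40.57% and 63.11% in MPP3 WT and 56.55% and 40.66% in LT-HSC WT. Regions of MPP3 and myeloid marker genes summed to a normalized signal of 4246 to 4521 in MPP3 WT, against 1823 to 2324 in LT-HSC WT, and those of LT-HSC marker genes to 4727 to 4903 in MPP3 WT, against 5525 to 6057 in LT-HSC WT, so both labels fitted their markers. Accessibility does not check the genotype labels. Values below are normalized signal, the deposited value divided by a TMM factor, and a level compared between elements is given per kb of element width.

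The strongest elements of the locus were the distal +1662.9 kb element and the Myc promoter. The +1662.9 kb element, at chr15:63647575-63648880, averaged 269 normalized signal per kb over the 14 libraries, with a range of 99.8 to 409. The Myc promoter element, chr15:61984089-61986507, spans the Myc start and averaged 227 per kb, with a range of 92.1 to 329. The element just upstream of Myc, chr15:61983215-61983788, followed with 166 per kb, ahead of the +121.4 kb element in Pvt1 with 137 per kb and the Myc gene body element, chr15:61986675-61988862, with 129 per kb.

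The other 7 distal elements averaged 68.7 to 118 per kb, the other 4 Pvt1 elements 69.2 to 101 per kb, and the +1939.2 kb element 112 per kb. The element at +407.6 kb, in the stretch between Pvt1 and the cluster, was lowest with 48.8 per kb and a range of 14.9 to 93.1. Neighbours in this order overlapped in their ranges over libraries. The first and the last did not, since every library of the +1662.9 kb element lay above every library of the +407.6 kb element.

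**Figure D1:**
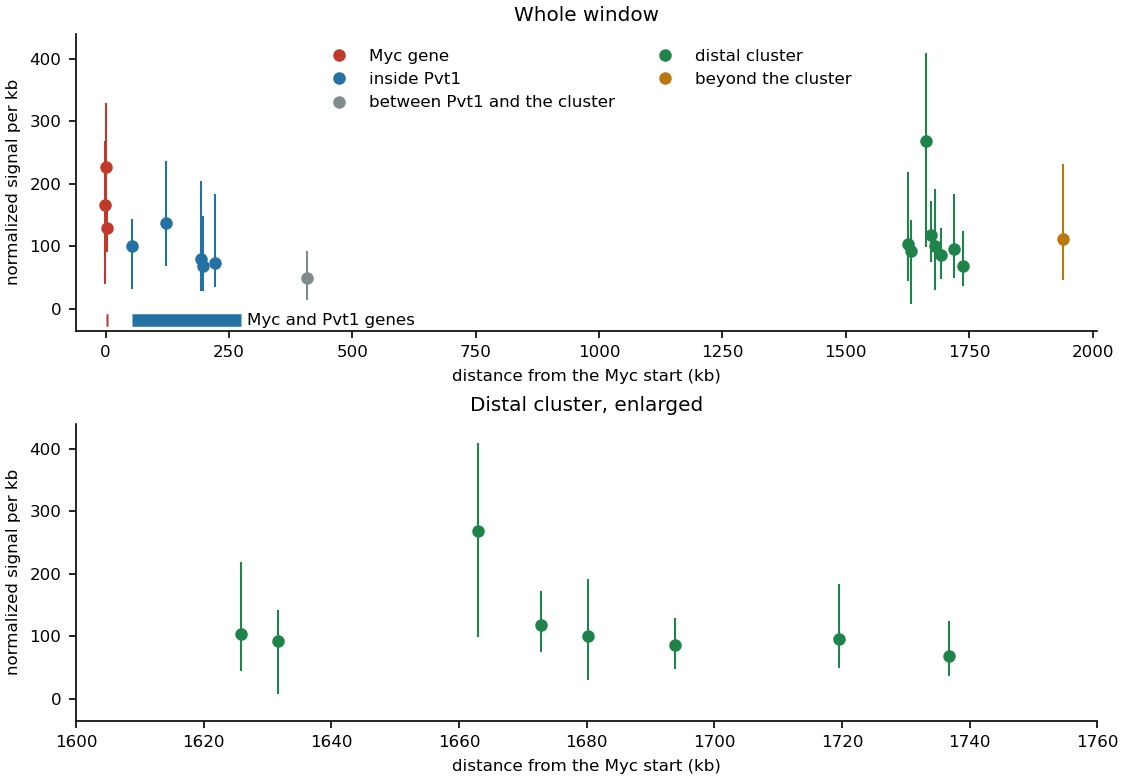
Mean normalized signal per kb of each element (points) with the lowest and highest of 14 libraries (lines), against distance in kb from the Myc start; the lower panel enlarges the distal cluster. The +1662.9 kb element averages 269 per kb and stands above the other distal elements, which average 68.7 to 118 per kb.

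The signal of the window was spread unequally. At the Myc gene, 3 of 7 listed regions were elements and held 94.4% of the mean signal listed there. In Pvt1, 5 of 89 regions held 17.8%, and in the distal cluster 8 of 75 regions held 45.1%. Between Pvt1 and the cluster, 1 of 158 regions held 2.7%. Over the whole window the 18 elements held 33.3% of the signal, against 44.6% held genome-wide by the 59189 regions past the same mean. Around the threshold, the +196.5 kb and +192.6 kb elements in Pvt1 had deposited means of 50.14 and 51.86, while a further Pvt1 region with 48.29 and a distal region with 47.0 fell outside.

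Annotation placed no protein-coding gene over the distal cluster elements. The +1736.8 kb element, chr15:63721608-63722711, lies in the long non-coding RNA gene 4930449C09Rik. The other 7 overlap no annotated gene, and the closest gene to the +1662.9 kb element is Gm5473, 15039 bp away. The +52.5 kb element, chr15:62037543-62038148, lies over the start of Pvt1, and the other 4 Pvt1 elements lie inside it. The +1939.2 kb element, chr15:63924032-63925138, lies in the pseudogene Gsdmcl-ps.

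The first comparison asked whether the locus differs between progenitors and stem cells, as the mean difference over the 4 genotypes. None of the 18 elements was called in either direction at an adjusted p under 0.05 in limma with Benjamini-Hochberg adjustment over all tested regions, where 0.139% of all regions were called. With an unadjusted p under 0.05 there were 3 elements, against 12.5% of all regions. A log2 difference above 0 was found at 14 of 18 elements, against 52.5% of all regions, and the median over elements was 0.25, against 0.03 over all regions.

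The Myc promoter and the strongest distal element had small differences between the cell types, neither of them called. The promoter had a lowest, median and highest value of 222.9, 630.9 and 795.7 in MPP3 libraries, against 237, 572.9 and 678.7 in LT-HSC libraries. The cell types overlapped over most of their range. The log2 difference was 0.12 with SE 0.20 and a 95% interval of -0.29 to 0.53, and limma gave an adjusted p of 0.838. With cyclic loess scaling it was -0.07.

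At the +1662.9 kb element the lowest, median and highest values were 237.6, 350.9 and 454.1 in MPP3, against 130.4, 409.3 and 534.5 in LT-HSC. The LT-HSC libraries spanned the wider range and held both the highest and the lowest values. The log2 difference was 0.15 with SE 0.20 and a 95% interval of -0.25 to 0.56 (limma adjusted p = 0.781). In WT alone it had the opposite sign, with 305.4 and 454.1 in MPP3 WT, both below the 487.2 and 534.5 in LT-HSC WT (-0.45, SE 0.35, limma adjusted p = 1). The mean over genotypes includes the LT-HSC Npm1 pair, the lowest libraries of all at this element.

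Within the cluster, +1719.5 kb and +1680.2 kb had differences of opposite sign, neither of them called. The +1719.5 kb element, chr15:63704235-63705390, had 66.4, 149.3 and 212.9 as lowest, median and highest values in MPP3, against 57.2, 67.9 and 112.6 in LT-HSC. Of the MPP3 libraries, 1 of the MPP3 Dnmt3a pair lay among the LT-HSC values and the others lay above them all. The log2 difference was 0.93 with SE 0.29, 1.91-fold higher in MPP3 (limma adjusted p = 0.192; this element was singled out after its values were seen). In WT alone it was 127.9 and 160.7 in MPP3, against 63.7 and 57.2 in LT-HSC, a log2 difference of 1.20 with SE 0.52 (limma adjusted p = 0.9).

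The +1680.2 kb element, chr15:63665100-63665918, had 25.1, 64.1 and 115 in MPP3, against 43.5, 91.3 and 157.2 in LT-HSC. The groups overlapped, with the MPP3 Dnmt3a pair high among progenitors. A log2 difference of -0.72 with SE 0.34 was found (limma adjusted p = 0.388), and in WT alone it was -1.07 with SE 0.61 (limma adjusted p = 0.995). The +1939.2 kb element beyond the cluster had 129.1, 140.1 and 256.8 in MPP3, against 50.7, 89.1 and 137.9 in LT-HSC, which overlapped only at the top of LT-HSC. Its log2 difference was 0.85 with SE 0.25, with a 95% interval of 0.33 to 1.37 (limma adjusted p = 0.166). In WT alone it was 0.17 with SE 0.45, from overlapping values of 129.1 and 140.1 in MPP3 WT, against 137.9 and 102.3 in LT-HSC WT (limma adjusted p = 1). The highest value of the element lay in MPP3 Dnmt3a (256.8) and the lowest in LT-HSC Dnmt3a (50.7).

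Of the remaining distal elements, 3 had differences above 0 that were not called. The +1625.9 kb element (chr15:63610855-63611585) had 47.3, 96.4 and 160.4 in MPP3, against 32.3, 58.3 and 96.5 in LT-HSC (log2 difference 0.68, SE 0.36). The +1631.6 kb element (chr15:63616609-63617266) had 57.4, 70.6 and 84.3 in MPP3, against 5.2, 43.9 and 94.4 in LT-HSC (0.75, SE 0.41), and +1672.9 kb (chr15:63657747-63658755) had 113, 126.9 and 173.3 in MPP3, against 76.2, 102.2 and 116.5 in LT-HSC (0.46, SE 0.25). In these 3 the middle MPP3 library lay above the middle LT-HSC library and the ranges overlapped, at +1672.9 kb only between 113 and 116.5.

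The last 2 distal elements had differences smaller than their standard errors. At +1693.8 kb (chr15:63678800-63679472) the values were 32.3, 48.3 and 75.5 in MPP3, against 45.6, 54.1 and 87.7 in LT-HSC (-0.18, SE 0.35), and at +1736.8 kb they were 41.2, 85 and 114.6 in MPP3, against 47.4, 68.2 and 137.4 in LT-HSC (0.02, SE 0.33).

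In Pvt1, 2 of 5 elements had log2 differences above 0 in WT alone, with a median of -0.41, against -0.01 over all regions. Over the 4 genotypes 3 of 5 did, against 52.5% of all regions, with a median of 0.31, against 0.03 over all regions. Pvt1's element of highest mean, at +221.1 kb (chr15:62205870-62207092), had 41.9, 74.9 and 147.5 in MPP3, against 55.8, 80.2 and 223.5 in LT-HSC, with wide overlap. Its log2 difference was -0.14 with SE 0.32 (limma adjusted p = 0.891), and it was 0.06 without LT-HSC Npm1 replicate A, which holds the highest value. The +52.5 kb element over the Pvt1 start had 49.1, 65.8 and 82.3 in MPP3, against 19.1, 56.3 and 87.3 in LT-HSC, where the widest spread was within LT-HSC (0.31, SE 0.36). Log2 differences were -0.32 with SE 0.30 at +121.4 kb (chr15:62106482-62107063), 0.50 with SE 0.42 at +192.6 kb (chr15:62177588-62178241) and 0.46 with SE 0.41 at +196.5 kb (chr15:62181470-62182197). At +407.6 kb (chr15:62392303-62393506), between Pvt1 and the cluster, it was 0.18 with SE 0.38. The element just upstream of Myc (22.7, 123.2 and 153.6 in MPP3, against 45.4, 87.1 and 106.6 in LT-HSC) had 0.42 with SE 0.34, and the gene body (231.7, 289.1 and 369.1 in MPP3, against 200.6, 235.2 and 339.2 in LT-HSC) 0.12 with SE 0.19, both overlapping.

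In WT alone, no element and no other region was called between the cell types (0% of tested regions by limma; 5.33% at an unadjusted p under 0.05). The WT libraries did not overlap at 2 elements that were higher and 6 that were lower in MPP3, against 17.2% of all regions in each direction. At 3 elements (+1662.9, +1736.8 and +196.5 kb) the log2 difference in WT alone was below 0 while that over all genotypes was above 0.

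**Figure D2:**
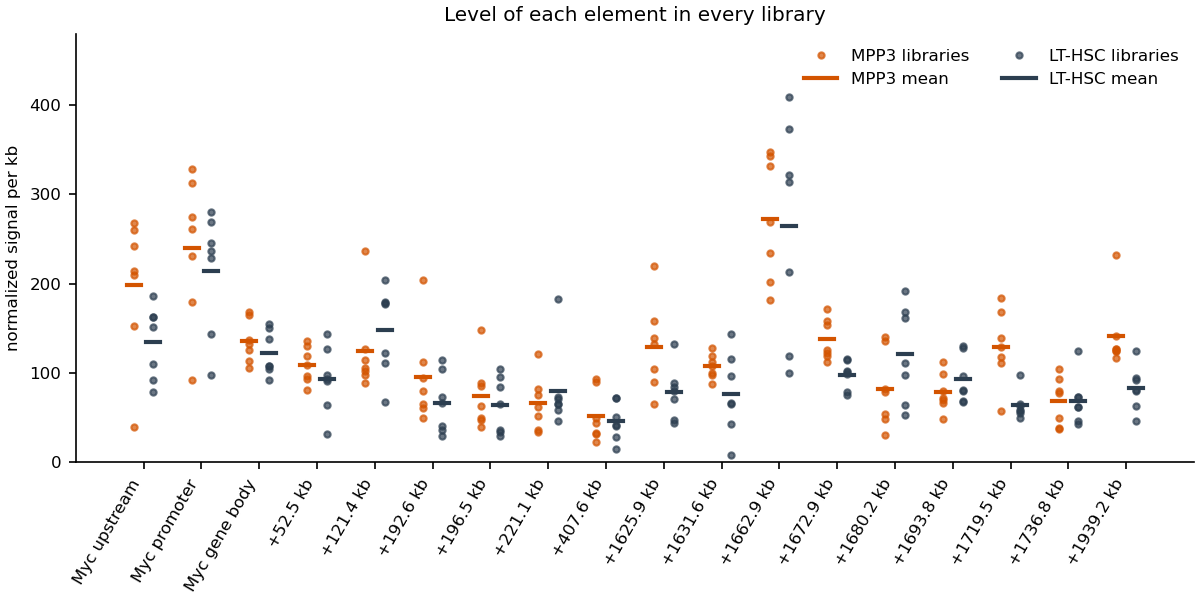
Normalized signal per kb of each element (x axis, in order along the chromosome) in every library, MPP3 (orange) left of LT-HSC (dark blue), with cell type means as bars. MPP3 points lie mostly above LT-HSC points at +1719.5 kb (means of 129 and 63.7 per kb) and +1939.2 kb (142 and 82.8 per kb), while the Myc promoter means of 240 and 214 per kb are close.

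In stem cells, the Npm1 mutation went with a smaller signal at the strongest distal element, the 1 element called in any comparison made. That element, +1662.9 kb, had 155.6 and 130.4 in LT-HSC Npm1, against 487.2 and 534.5 in LT-HSC WT. Both mutant libraries lay far below both WT libraries and below all other libraries of the study. The element fell by 1.81 on the log2 scale (SE 0.35, 95% interval -2.54 to -1.09), 3.51-fold lower in LT-HSC Npm1 (limma adjusted p = 0.0126). This was 1 of 18 elements, against 4.51% of tested regions called lower and 5.91% called in either direction (2 elements and 23.3% of regions at an unadjusted p under 0.05). A smaller share of cells with the element open and less signal per cell cannot be told apart in these libraries.

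The call rested on few libraries and on how they were scaled. Behind the +1662.9 kb value stood 41 reads in LT-HSC Npm1 replicate A, against 329 and 288 in LT-HSC WT. For LT-HSC Npm1 replicate B the number of reads is unknown, and the part of depth was not tested. Leaving out a library, limma gave an adjusted p of 0.0672 (LT-HSC WT replicate A), 0.05 (LT-HSC WT replicate B) or 0.0799 (LT-HSC Npm1 replicate B), while the log2 differences were -1.80, -1.75 and -1.69. The log2 difference was -1.01 (adjusted p = 0.144) with cyclic loess scaling, -1.47 (adjusted p = 0.687) in a fit that held enrichment as a covariate and -2.95 (adjusted p = 0.0447) with no filter, and the LT-HSC Npm1 pair was the lowest in enrichment.

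Measured within the cluster, the same element held a smaller share, which restates the same values and is no second test. It made up 21.1% and 20.4% of the summed signal of the 8 distal elements in LT-HSC Npm1, against 49.3% and 52.7% in LT-HSC WT. The share was 40.2% in MPP3 Dnmt3a;Npm1, 34.9% and 36.5% in MPP3 Npm1, 25.3% and 29.6% in MPP3 Dnmt3a and 38.6% and 41.9% in MPP3 WT. In stem cells it was 40.8% and 40.9% in LT-HSC Dnmt3a;Npm1 and 43% in LT-HSC Dnmt3a. A share of this kind is unaffected by a scaling factor, yet shows only that the elements changed unequally. The LT-HSC Npm1 pair had the smallest shares of all and the MPP3 Dnmt3a pair the next smallest. These pairs were also the lowest and next lowest in enrichment, and the part of enrichment in the share was not tested.

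The other 7 distal elements were not called in this comparison, and their log2 differences ran from -0.89 at +1680.2 kb to 0.67 at +1631.6 kb. The +1680.2 kb element had 79.5 and 43.5 in LT-HSC Npm1, against 137.9 and 91.3 in LT-HSC WT, so both mutant libraries lay below both WT libraries. The +1719.5 kb element had 67.9 and 112.6 in LT-HSC Npm1, against 63.7 and 57.2 in LT-HSC WT, with both mutant libraries above. The 2 most accessible distal elements after the called one, +1672.9 kb and +1719.5 kb by total signal, had log2 differences of 0.04 with SE 0.44 and 0.51 with SE 0.52.

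The Myc promoter had 346 and 237 in LT-HSC Npm1, against 651.8 and 552.6 in LT-HSC WT. Both mutant libraries lay below both WT libraries, as at the distal element, but the difference was not called. Its log2 difference was -1.06 with SE 0.36, 2.08-fold lower in LT-HSC Npm1 (limma adjusted p = 0.0767). It was called when libraries were scaled to their total (-1.66, adjusted p = 0.0254) and was -0.05 with cyclic loess scaling (adjusted p = 0.955). With the filter at 100 it was -0.52 (limma adjusted p = 0.265), and with enrichment as a covariate -0.51 (limma adjusted p = 0.87).

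The element just upstream of Myc had 53 and 45.4 in LT-HSC Npm1, against 106.6 and 63.2 in LT-HSC WT, with no overlap (log2 difference -0.70, SE 0.60). The gene body element had 228.4 and 235 in LT-HSC Npm1, against 235.2 and 200.6 in LT-HSC WT, within the spread of WT (log2 difference 0.09, SE 0.35). The promoter and upstream elements thus lay below WT without a call, while the gene body did not lie apart from WT.

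Pvt1 elements had log2 differences of -0.73 to 0.88 in LT-HSC Npm1 over LT-HSC WT, with 4 of 5 above 0, against 50.3% of all regions, and none called. The lower one was +121.4 kb, with 64.6 and 39.5 in LT-HSC Npm1, both below the 71.3 and 104.3 in LT-HSC WT (-0.73, SE 0.54). It stayed below 0 in all 21 alternatives, while +52.5, +192.6, +196.5 and +221.1 kb stayed above 0 in 18, 20, 17 and 18 of them. The +221.1 kb element had 223.5 and 71.1 in LT-HSC Npm1, against 88.6 and 80.2 in LT-HSC WT, where 1 mutant library was the highest of the study and the other lay below both WT libraries (log2 difference 0.57, SE 0.57; limma adjusted p = 0.59). That difference was -0.23 without LT-HSC Npm1 replicate A. Over all 18 elements 5 were higher and 5 lower with no overlap between LT-HSC Npm1 and LT-HSC WT libraries, against 25.4% and 28.6% of all regions. Of the 18 elements, 11 had differences above 0. With scaling to library totals 3 did, with the median of all regions at -0.57, and with no filter 1 did, with the median of all regions at 0.06.

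**Figure D3:**
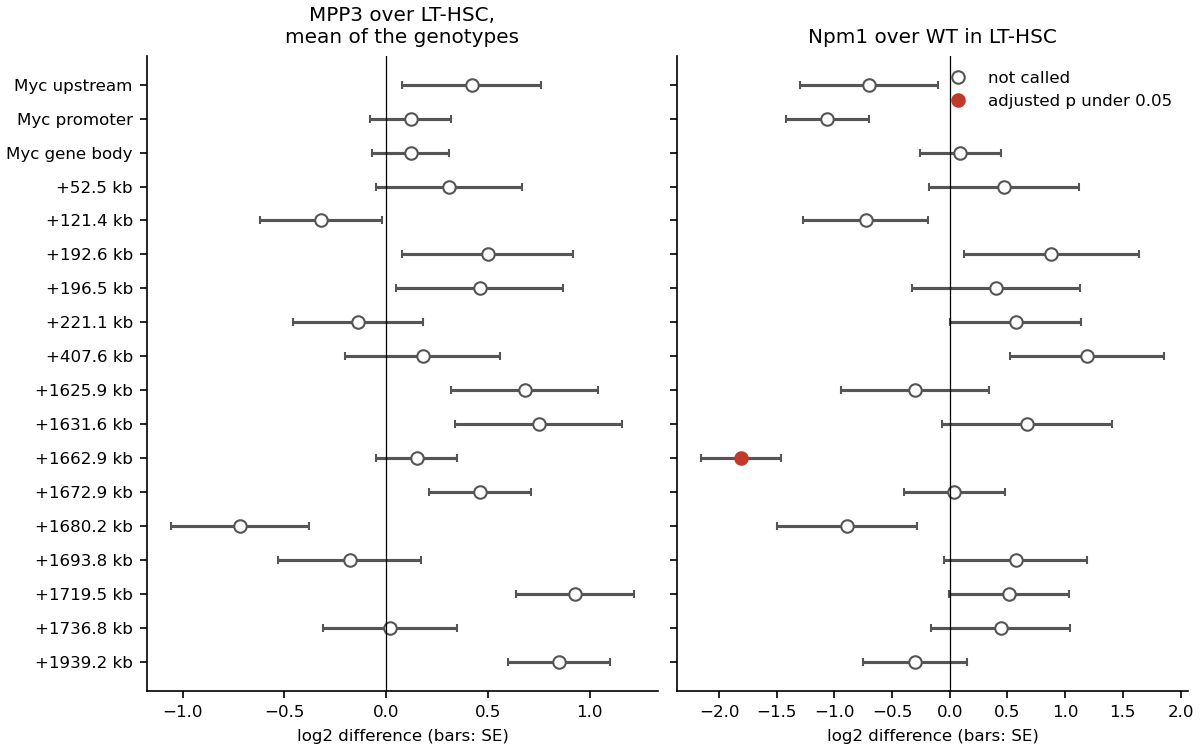
Log2 difference of each element, with limma's standard error as bars, for MPP3 over LT-HSC (left) and for LT-HSC Npm1 over LT-HSC WT (right); filled points have an adjusted p under 0.05. The +1662.9 kb element at -1.81 in LT-HSC Npm1 is the 1 filled point.

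Summed signal at marker genes of several cell types lay apart between these 2 groups as well. Regions of MPP3 and myeloid markers summed to 2789 to 3248 in LT-HSC Npm1, against 1823 to 2324 in LT-HSC WT, with 0 of 20 regions called and a median log2 difference of 0.77. Megakaryocyte markers summed to 891 to 1059 in LT-HSC Npm1, against 1646 to 1770 in LT-HSC WT, with 0 of 7 called and a median of -1.01. LT-HSC markers summed to 4934 to 5452 in LT-HSC Npm1, against 5525 to 6057 in LT-HSC WT. Their regions went both ways, with 17 of 42 above 0 and a median of -0.11, against 0.01 over all regions. Of the 42 regions 1 was called lower, against 4.51% of all regions. It lay at Hlf, a transcription factor of stem cells (-1.15, SE 0.34, limma adjusted p = 0.0467).

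The groups did not overlap in any of those 3 sums. Among single regions, 25.4% lay higher and 28.6% lower without overlap in this comparison, so such a separation was common. Mast and basophil markers summed to 437 to 490 in LT-HSC Npm1, against 164 to 377 in LT-HSC WT, all from Hdc, the histamine-producing enzyme, since Cpa3 and Ms4a2 had no tested region. Of its 5 regions, 3 had log2 differences above 0, with a median of 0.37, and 1 was called higher, against 1.4% of all regions (2.17, SE 0.52, limma adjusted p = 0.0229). With enrichment as a covariate limma called 0 of the 59189 regions in this comparison, these included. Erythroid markers summed to 585 to 823 in LT-HSC Npm1, against 662 to 985 in LT-HSC WT, and niche markers (Cxcl12 and Col1a1, with no tested region at Lepr) to 922 to 996 in LT-HSC Npm1, against 584 to 1153 in LT-HSC WT. The part of cell composition in the difference at the +1662.9 kb element was not tested.

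The same mutation in progenitors gave no called element. At +1662.9 kb the values were 350.9 and 447.7 in MPP3 Npm1, against 305.4 and 454.1 in MPP3 WT, and the mutant values lay within the WT range (log2 difference 0.09, SE 0.35, 95% interval -0.64 to 0.81; limma adjusted p = 1). The Myc promoter had 630.9 and 795.7 in MPP3 Npm1, against 557.9 and 757.1 in MPP3 WT, overlapping (0.12, SE 0.36, 95% interval -0.62 to 0.86). Limma called 0 of 18 elements and 0% of tested regions, with 0.115% at an unadjusted p under 0.05.

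The difference of the Npm1 effect between cell types, MPP3 minus LT-HSC, was itself tested. At the +1662.9 kb element it was 1.90 with SE 0.50 and a 95% interval of 0.87 to 2.93 (unadjusted p = 0.000895, limma adjusted p = 0.312), and at the Myc promoter 1.18 with SE 0.50 (adjusted p = 0.397). Neither was called, nor was any other tested region, and 11.1% of regions had an unadjusted p under 0.05. The mutation's effect at these elements was therefore not shown to differ between stem cells and progenitors.

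**Figure D4:**
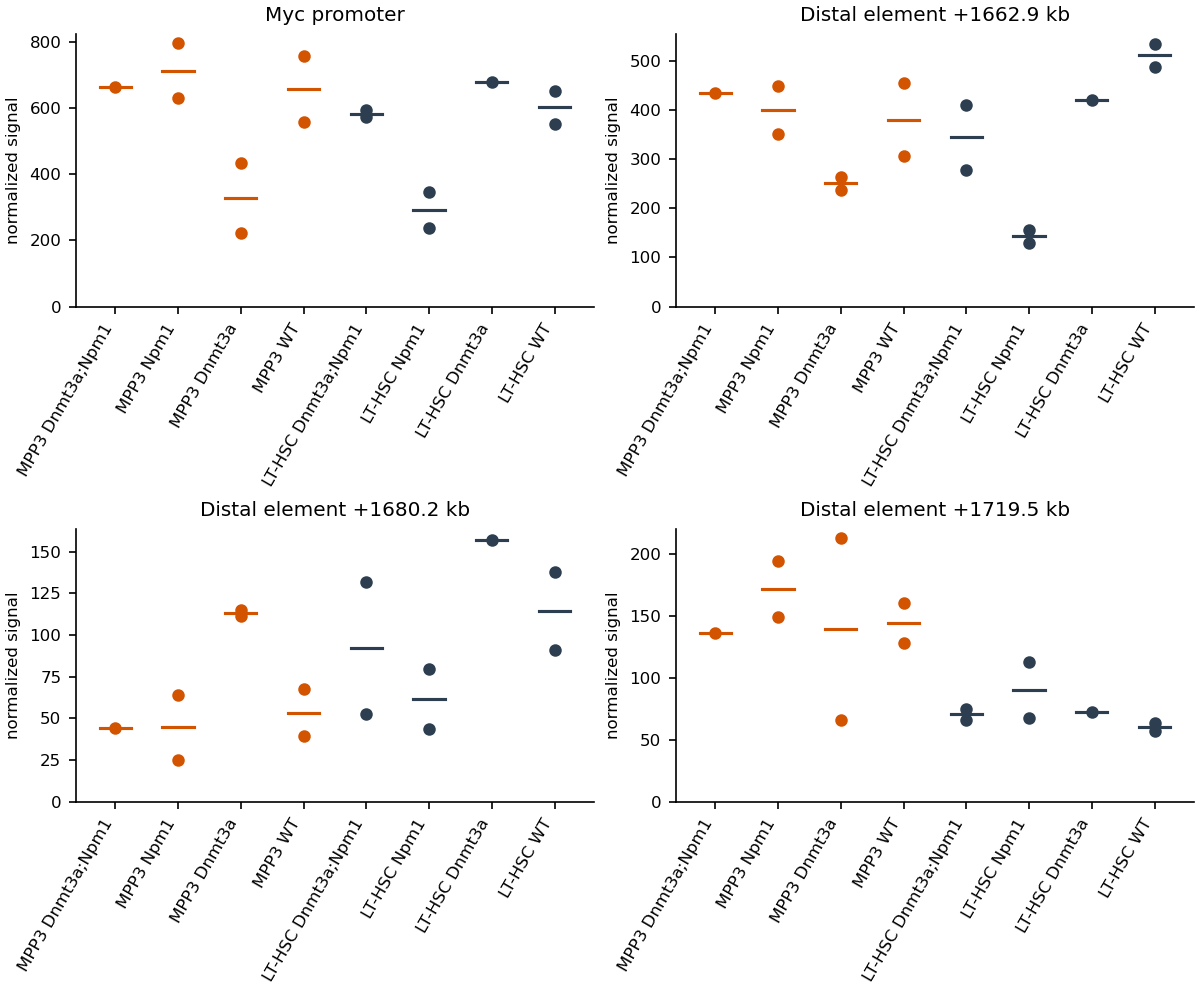
Normalized signal of 4 elements in each library (points) by group, with group means as bars; MPP3 groups are orange and LT-HSC groups dark blue. At +1662.9 kb the LT-HSC Npm1 pair (155.6 and 130.4) is lowest, and at the Myc promoter the MPP3 Dnmt3a pair and the LT-HSC Npm1 pair are the lowest groups.

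With both mutations, stem cells had no called element. At +1662.9 kb the values were 409.3 and 278.6 in LT-HSC Dnmt3a;Npm1, against 487.2 and 534.5 in LT-HSC WT, so both lay below WT without a call (log2 difference -0.59, SE 0.35, 95% interval -1.32 to 0.14; limma adjusted p = 0.763). The Myc promoter had 593.1 and 572.9 in LT-HSC Dnmt3a;Npm1, against 651.8 and 552.6 in LT-HSC WT, inside the WT spread (-0.04, SE 0.36). The LT-HSC WT libraries are shared with the Npm1 comparison, and the 2 mutant groups were not tested against each other.

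Elements at the ends of the list in that comparison were the Myc gene body and +1631.6 kb. The gene body element had 339.2 and 328.3 in LT-HSC Dnmt3a;Npm1, against 235.2 and 200.6 in LT-HSC WT, both above WT (0.61, SE 0.35, limma adjusted p = 0.751). The +1631.6 kb element had 42.7 and 5.2 in LT-HSC Dnmt3a;Npm1, against 28.4 and 76.2 in LT-HSC WT, where 1 mutant library was the lowest of all (-1.30, SE 0.74, limma adjusted p = 0.751). None of 18 elements and 0.00338% of regions were called, with 7.15% at an unadjusted p under 0.05.

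In progenitors with both mutations, a single library, the Myc promoter had 663.4, against 557.9 and 757.1 in MPP3 WT, and the +1662.9 kb element 433.6, against 305.4 and 454.1. Both lay inside the WT range. The highest log2 difference by test statistic was at +407.6 kb, with 108.4 in MPP3 Dnmt3a;Npm1, against 26.5 and 39.8 in MPP3 WT (1.62, SE 0.82, limma adjusted p = 1). The lowest was at +121.4 kb, with 51.9, against 66.9 and 61.5 (-0.29, SE 0.66). Limma called 0% of tested regions there, with 0.478% at an unadjusted p under 0.05. The difference of the double-mutant effect between cell types was highest at +196.5 kb (2.44, SE 1.16, limma adjusted p = 1) and lowest at +52.5 kb (-1.11, SE 1.02), and limma called 0% of regions, with 2.05% at an unadjusted p under 0.05.

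The Dnmt3a mutation in progenitors went with the other low values at the Myc promoter. The promoter had 222.9 and 434.7 in MPP3 Dnmt3a, against 557.9 and 757.1 in MPP3 WT, so both mutant libraries lay below both WT libraries. The log2 difference was -1.05 with SE 0.36 and a 95% interval of -1.79 to -0.31, 2.07-fold lower in MPP3 Dnmt3a, and it was not called (limma adjusted p = 0.381). It was -0.58 (adjusted p = 0.586) without MPP3 Dnmt3a replicate A and -1.53 (adjusted p = 0.0776) without replicate B. The element just upstream had 22.7 and 120.5 in MPP3 Dnmt3a, against 87.6 and 149.1 in MPP3 WT, overlapping (-1.04, SE 0.60).

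At +1662.9 kb the values were 264 and 237.6 in MPP3 Dnmt3a, against 305.4 and 454.1 in MPP3 WT, again below without a call (-0.57, SE 0.35, limma adjusted p = 0.586). The neighbouring +1680.2 kb element had 115 and 111.5 in MPP3 Dnmt3a, against 39.2 and 67.4 in MPP3 WT, above without a call (1.08, SE 0.61). All 5 Pvt1 elements had log2 differences above 0 (0.33 to 1.33), against 47.6% of all regions, among them +221.1 kb with 100.8 and 147.5 in MPP3 Dnmt3a, against 74.9 and 41.9 in MPP3 WT (1.07, SE 0.57, limma adjusted p = 0.529). This depended on the processing, since +52.5, +121.4 and +196.5 kb stayed above 0 in only 19, 20 and 16 of 21 alternatives. Their lowest values were -0.3, -0.06 and -0.31. Of the 18 elements, 12 had differences above 0. With scaling to library totals 6 did, with the median of all regions at -0.52, and with no filter 4 did, with the median of all regions at -0.03.

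None of the 18 elements and 0% of tested regions were called in MPP3 Dnmt3a over MPP3 WT, with 10.1% at an unadjusted p under 0.05. The MPP3 Dnmt3a pair was also low in enrichment and in myeloid markers, which summed to 2648 to 3550 in MPP3 Dnmt3a, against 4246 to 4521 in MPP3 WT. LT-HSC markers summed to 5058 to 5060 in MPP3 Dnmt3a, against 4727 to 4903 in MPP3 WT, also without overlap. Their regions went both ways, with 22 of 42 above 0 and a median of 0.10, against -0.04 over all regions. Lack of overlap was common, with 11507 of 59189 single regions higher and 11670 lower without it. Sums of erythroid, megakaryocyte, mast and basophil, and niche markers overlapped between the groups, and none of the marker regions was called. Their part in the promoter values was not tested. With enrichment as a covariate the promoter's log2 difference was -0.60 with SE 0.38.

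In stem cells with the Dnmt3a mutation alone, 1 library, the Myc promoter had 678.7, against 651.8 and 552.6 in LT-HSC WT, and the +1662.9 kb element 420.9, against 487.2 and 534.5. The first lay above both WT libraries and the second below both, by log2 differences of 0.18 with SE 0.44 and -0.28 with SE 0.43. At the ends of the list were +407.6 kb, with 87.1 in LT-HSC Dnmt3a, against 18 and 48.1 in LT-HSC WT (1.43, SE 0.82), and +1939.2 kb, with 50.7, against 137.9 and 102.3 (-1.17, SE 0.55). Limma called neither (adjusted p = 1 for both), with 0% of regions called and 1.83% at an unadjusted p under 0.05.

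For the difference of the Dnmt3a effect between cell types, MPP3 minus LT-HSC, the ends of the list were +1939.2 kb (1.64, SE 0.71) and the Myc promoter (-1.23, SE 0.56), with a limma adjusted p of 0.947 for each. No element and 0% of regions were called, with 4.71% at an unadjusted p under 0.05.

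**Figure D5:**
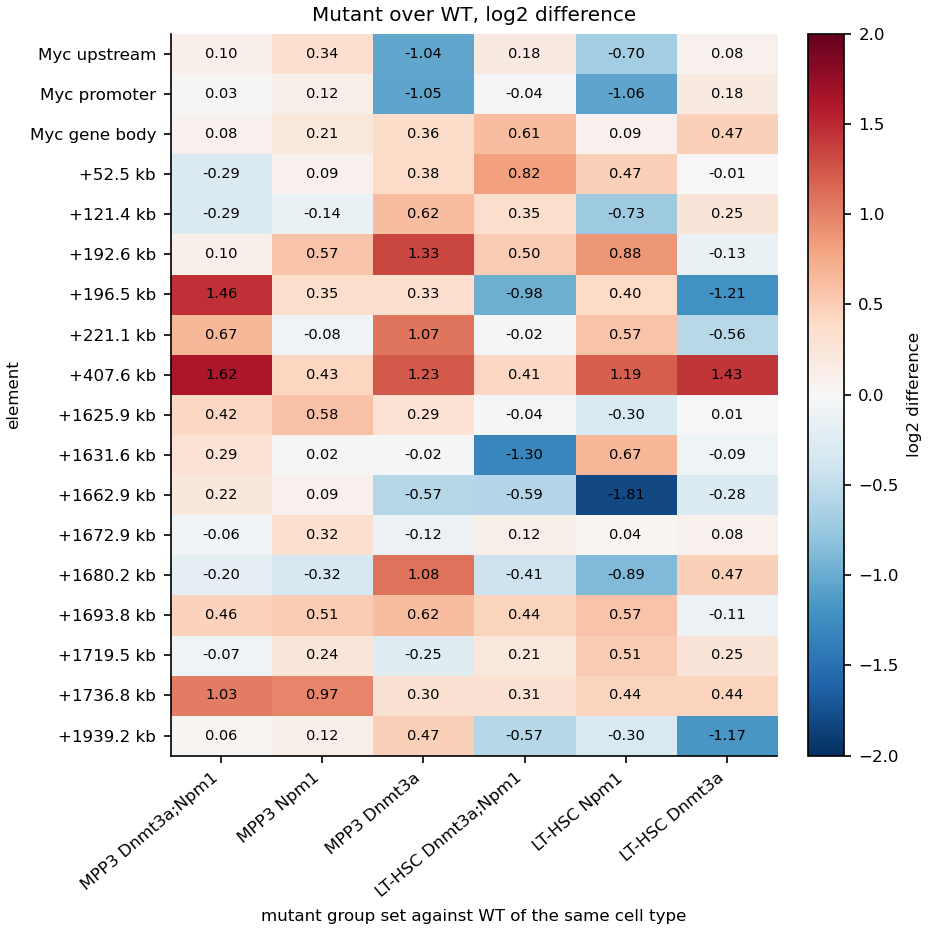
Log2 difference of each element (rows, in order along the chromosome) in 6 mutant groups (columns) over WT of the same cell type, with the value in each cell; blue is lower and red higher in the mutant. The darkest blue cell is the +1662.9 kb element in LT-HSC Npm1 at -1.81, and the Myc promoter is near -1 in LT-HSC Npm1 and MPP3 Dnmt3a and between -0.04 and 0.18 in the other 4 groups.

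Across libraries, 2 elements followed the Myc promoter more closely than the rest. Pearson's r of log2 normalized values over the 14 libraries was 0.87 for the element just upstream and 0.80 for the +1662.9 kb element. The next distal elements were +1736.8 kb with 0.32 and +1672.9 kb with 0.27. The other distal elements lay at -0.24 to -0.01, the Myc gene body at 0.05, the Pvt1 elements at -0.55 to 0.17, +407.6 kb at -0.51 and +1939.2 kb at -0.04. Among the r of all tested regions with the promoter, the +1662.9 kb element stood at the 94.7 percentile and the upstream element at the 98 percentile. The promoter and the +1662.9 kb element both had their lowest values in the LT-HSC Npm1 and MPP3 Dnmt3a pairs, which were also lowest in enrichment. Among libraries of known depth, those of these pairs also had the fewest reads in regions. The part of enrichment or depth in these r was not tested.

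Outside the window, the regions most like the Myc promoter had r of 0.977 to 0.987. They lay at Cdk5 and Slc4a2 (chr5:24422829-24424572), Tuba1c (chr15:99028810-99031062), Gm12762 and Gm12758 (chr7:34233552-34235335), Ccdc146 and Fam185a (chr5:21424481-21425503) and Ypel2 and Gm51915 (chr11:86992385-86994279). These points share the libraries' enrichment and normalization, and no p was computed. Summed over its 8 elements, the distal cluster held 2.13 and 2.70 times the Myc promoter's signal in LT-HSC Npm1, against 1.52 and 1.84 in LT-HSC WT, and 4.68 and 1.85 in MPP3 Dnmt3a, against 1.42 and 1.43 in MPP3 WT.

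Genes that work with Myc were examined at their own regions, by lists drawn up with earlier results of these data known. Between cell types, over all genotypes, none of 39 regions of the Myc network (Max, its partner, and the Mxd, Mnt, Mga and Mlx proteins, with Mycn, Mycl, Mxi1 and Zbtb17) was called, nor were any of 17 regions of genes that control MYC turnover, 136 of blood enhancer factors or 55 of MYC target genes. Their median log2 differences were 0.12, 0.20, 0.04 and 0.08, against 0.03 over all regions. By comparison, 1 of 20 regions of MPP3 and myeloid markers was called, higher at Mpo, which encodes the granule enzyme myeloperoxidase (1.52, SE 0.22, limma adjusted p = 0.0114).

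In LT-HSC Npm1 over LT-HSC WT, regions of all 4 lists were among those called lower. Over all tested regions 4.51% were called lower and 1.4% higher. None of the lists' calls remained with cyclic loess scaling or with enrichment as a covariate. In the network 5 of 39 were lower and 0 higher, at Mga (-2.08), Mnt (-1.27 and -1.34) and Mxd3 (-1.29), repressors that dimerize with Max, and at Max itself (-1.20). Of the turnover genes 4 of 17 were lower and 0 higher, at the kinases Gsk3b (-1.69) and Gsk3a (-1.54), the ubiquitin ligase subunit Skp2 (-1.23) and the deubiquitinase Usp28 (-1.23). Of the MYC targets 8 of 55 were lower and 0 higher, among them the nucleolar genes Ncl (-1.97) and Nop58 (-1.55) and the cyclin Ccnd2 (-1.59).

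Of the blood enhancer factors 3 of 136 regions were lower, 1 at Meis1 (-1.51) and 2 at Runx1 (-1.25 each), and 1 was higher, at Gfi1b (2.24). The background was 4.51% lower and 1.4% higher. The lists' medians were -0.16 for the network, -0.90 for turnover, 0.01 for the enhancer factors and -0.45 for the targets, against 0.01 over all regions. With cyclic loess scaling none of these regions was called, and the medians were 0.22, -0.25, 0.02 and -0.11. No call on these lists remained with enrichment as a covariate either. In the other 5 mutant comparisons none of the regions of the 4 lists was called.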

How the data were processed

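ATAC-seq signal of 14 libraries was read from 1 deposited table of 705361 regions in build mm10. The submitters' processing notes list R 3.6.0, HOMER 4.10, edgeR 3.26.4 and DiffBind 2.12.0 without saying what each did. Which aligner and peak caller were run is not given in the sources used here. Each deposited signal value is a whole number, though not always a count. In 8 libraries 98.7% to 100.0% of low values lay on multiples of a step of 1.101 to 2.618, so reads had been scaled by 1 factor per library and rounded, while in 6 no step was found and the depth is unknown. A count test was therefore not used.

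Regions with a mean of at least 50 were tested. Values were divided by TMM factors (trims of 0.3 and 0.05) over these regions, and limma 3.58.1 in R 4.3.3 was fitted to log2(normalized value + 4) with 8 group means and a robust, trended prior variance. This scale understates differences of low regions. A lone library was taken to vary as other groups do. A region was called where the two-sided p, adjusted by Benjamini-Hochberg within each of 11 comparisons, was under 0.05. The fit was tested on simulated data, where it returned the set differences with little bias. It called few or none of them in the mutant comparisons simulated. In MPP3 over LT-HSC it called few of the smaller set differences and only a part of the larger ones. The absence of a call therefore carries little weight in either kind of comparison. Few regions were changed in the simulation, so its call rates do not describe LT-HSC Npm1 over LT-HSC WT, where 3500 regions were called. Errors on log2 differences are limma's standard errors.

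Gene positions are RefSeq's for the same assembly. A list region lies in a gene or within 1 kb of it. One marker list is not reported here. Named elements are the called ones, otherwise the highest and lowest by moderated t, and always the Myc promoter, +221.1 kb and +1662.9 kb. The members and lists were chosen with earlier results of these data known. Alternatives were other filters, scalings and pseudocounts, enrichment as a covariate, the replicate letter as a block and each library left out.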

Additional observations from a re-analysis of the deposited data

How the results depend on the processing

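Outside LT-HSC Npm1 over LT-HSC WT, 0 elements were called in every comparison and alternative run. In that comparison the count was 1, and 2 elements were called with scaling to library totals, 0 with cyclic loess and 0 with enrichment as a covariate, and 0 to 1 with a library left out (0 without LT-HSC WT replicate A, LT-HSC WT replicate B or LT-HSC Npm1 replicate B). The cause was not tested. The letters did not pair the libraries (r of -0.3 to 0.43 over 15 pairs of groups, 1 above 0.1), and with the replicate block the +1662.9 kb element stayed at -1.81 (limma adjusted p = 0.0177). A filter at 100 left 7 of the 18 elements.

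Genome-wide, LT-HSC Npm1 over LT-HSC WT had 3500 called regions, against 1220 with a filter at 100, 503 with none, 8905 with total scaling (464 higher and 8441 lower, with the median of all regions at -0.57), 93 with loess, 0 with the covariate and 191 to 4834 with a library left out. MPP3 over LT-HSC had 82, against 327, 104 and 4 with total scaling, loess and the covariate, and 0 to 341 with a library left out. MPP3 Dnmt3a over MPP3 WT had 0, against 112 with total scaling, 10 with no filter, and 230 and 490 without MPP3 Dnmt3a replicate A and B. LT-HSC Dnmt3a;Npm1 over LT-HSC WT had 2, against 0 to 531 with a library left out (531 without its replicate A), and MPP3 over LT-HSC in WT had 0, against 0 to 51 (51 without LT-HSC WT replicate A).

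Signs turned only for values that were not called. For the Myc promoter, LT-HSC Dnmt3a;Npm1 over LT-HSC WT was 0.04, 0.07 and 0.14 with the filter at 100, loess and the covariate. MPP3 Npm1 over MPP3 WT was -0.04 with no filter, MPP3 Dnmt3a;Npm1 over MPP3 WT was -0.22, -0.04 and -0.05 with no filter, total scaling and the replicate block, MPP3 over LT-HSC was -0.07 with loess, and the cell type difference of the double-mutant effect was 0 with the block. For +1662.9 kb with no filter, MPP3 Npm1 was -0.08 and MPP3 Dnmt3a;Npm1 was -0.03, and the cell type difference of the Dnmt3a effect was 0.11 with loess and 0 with the covariate. For +221.1 kb, LT-HSC Npm1 was -0.56 and -0.03 with no filter and total scaling, and the cell type difference of the Npm1 effect was 0.32 with no filter.

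With a library left out, the Myc promoter ranged from -0.16 to 0.09 in LT-HSC Dnmt3a;Npm1, -0.10 to 0.34 in MPP3 Npm1, -0.19 to 0.25 in MPP3 Dnmt3a;Npm1, -0.10 to 0.33 for MPP3 over LT-HSC in WT and -0.15 to 0.29 for the cell type difference of the double-mutant effect. The +1662.9 kb element ranged from -0.19 to 0.37 in MPP3 Npm1 and -0.07 to 0.50 in MPP3 Dnmt3a;Npm1, and +1680.2 kb from -0.93 to 0.29 in MPP3 Npm1. The +221.1 kb element ranged from -0.09 to 0.07 in LT-HSC Dnmt3a;Npm1, -0.23 to 1.37 in LT-HSC Npm1, -0.47 to 0.31 in MPP3 Npm1, -0.54 to 0.06 for MPP3 over LT-HSC and -1.45 to 0.15 for the cell type difference of the Npm1 effect.

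Groups of 1 or 2 libraries limit what limma calls, and a p that misses the threshold does not show that values are alike. Elements near the mean of 50 rest on few reads.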
